A study of Rattus norvegicus with 11 samples.

Results

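Potassium channel genes of the bladder were followed in rats with partial bladder outlet obstruction (PBOO) through 10 genes picked by symbol, out of 18507 genes listed. The 10 are Kcnma1, Kcnmb1, Kcnn3, Kcnf1, Kcng1, Kcnh2, Kcnk5, Kcnk7, Kcnj8 and Abcc9, and all of them had a row in the table. They were picked with the differences between PBOO and normal bladders of these same samples already known. Those differences are therefore given as values without a test, and the tests are kept for the other 84 potassium channel genes of the table. RNA-seq was done on bladder tissues of female Sprague-Dawley rats aged about 6 months, with 3 PBOO and 3 normal samples at week 4 and with 2 PBOO and 3 normal samples at week 5. In PBOO rats a suture was tied around the bladder neck and urethra, and the methods describe controls that had the abdominal incision alone, which the labels call normal. The columns of the week 5 normal samples are named as adult, and those of the week 5 PBOO samples begin with DO. All columns of week 4, normal and PBOO, end in Input, a word that the methods do not explain. Values are FPKM, fragment counts scaled by the length of the exons and by the mapped fragments of the sample. FPKM allows levels of different genes to be set side by side per length, but the reads behind a value, and so its counting error, are unknown.

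Potassium channels let K+ leave the cell when they open. In detrusor muscle, the muscle of the bladder wall, this outward current holds the membrane potential negative, limits calcium entry and so restrains contraction. Large-conductance calcium-activated (BK), small-conductance calcium-activated (SK), voltage-gated (Kv) and ATP-sensitive (KATP) channels are the best known families of this muscle. Pore subunits make the channel, while modifier and accessory subunits do not conduct alone and tune the pore subunits they join.

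Reference sequences before the start sites are shown for 4 of the genes: the BK pore gene Kcnma1, its accessory gene Kcnmb1, Kcnf1 and Kcnk5. At week 5 Kcnma1, Kcnmb1 and Kcnf1 were lower in PBOO, with Kcnf1 the lowest relative to normal, and Kcnk5 was higher. The sequences come from RefSeq (build GRCr8), which had such a sequence for 8 of the 10 genes. Each run holds the 250 bases upstream of 1 annotated start, read 5′ to 3′ on the strand of the gene. Kcnma1 lies at chr15:351675-351924 (plus strand), Kcnmb1 at chr10:19061849-19062098 (plus), Kcnf1 at chr6:45693707-45693956 (minus) and Kcnk5 at chr15:4171375-4171624 (plus). Capitals mark GGGCGG, the core of a GC box, and CATTCC, the core of an M-CAT element, on either strand, and matches may overlap.
Kcnma1: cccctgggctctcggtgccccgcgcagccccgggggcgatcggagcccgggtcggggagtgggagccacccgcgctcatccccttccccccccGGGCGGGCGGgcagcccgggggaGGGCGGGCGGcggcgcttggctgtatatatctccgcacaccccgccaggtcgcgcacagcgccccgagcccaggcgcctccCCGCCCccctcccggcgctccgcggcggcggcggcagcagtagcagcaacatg
Kcnmb1: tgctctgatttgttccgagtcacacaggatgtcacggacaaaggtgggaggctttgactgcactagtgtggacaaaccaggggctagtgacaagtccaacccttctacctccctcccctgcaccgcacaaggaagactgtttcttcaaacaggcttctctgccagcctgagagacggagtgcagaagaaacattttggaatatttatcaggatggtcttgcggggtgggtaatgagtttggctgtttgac
Kcnf1: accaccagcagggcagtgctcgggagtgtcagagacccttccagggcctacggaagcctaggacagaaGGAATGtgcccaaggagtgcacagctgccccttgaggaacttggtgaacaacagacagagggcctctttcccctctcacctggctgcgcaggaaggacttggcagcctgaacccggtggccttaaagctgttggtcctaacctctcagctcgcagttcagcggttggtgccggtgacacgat
Kcnk5: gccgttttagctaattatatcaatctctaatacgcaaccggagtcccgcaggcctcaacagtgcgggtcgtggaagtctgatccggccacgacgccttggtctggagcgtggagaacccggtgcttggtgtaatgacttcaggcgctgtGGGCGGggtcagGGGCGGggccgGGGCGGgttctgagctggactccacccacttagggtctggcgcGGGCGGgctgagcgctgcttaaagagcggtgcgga
GGGCGG was found 5 times upstream of Kcnma1, 4 times upstream of Kcnk5 and in neither of the other 2 runs, and 30.5% of the 33469 promoters of the same length held it. CATTCC was found 1 time, upstream of Kcnf1, and in 12.1% of all promoters. The CArG box, the site known for serum response factor in smooth muscle genes, was found in none of the 8 windows, and in 1.5% of all promoters. Kcnma1 had 33 CG dinucleotides and 79.6% G and C, against 5 CG dinucleotides and 50.8% for Kcnmb1. The median of all promoters was 5 CG dinucleotides and 51.2%. A match of letters is a description alone, and no link between these windows and the levels of the genes was tested.

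The FPKM of a sample summed to between 424961 and 564343. At week 4 all PBOO samples had lower sums than the normal samples, and at week 5 both had higher ones. The markers of detrusor muscle and of urothelium, the lining of the bladder, were present in normal bladders. The summed level of 10 smooth muscle markers was 26279 to 28425 FPKM in the 3 normal samples of week 4 and 25503 to 29659 FPKM in those of week 5. Normal replicate 1 of week 4 stood apart from replicates 2 and 3 in the 10 interstitial markers, with 1984 FPKM against 6853 and 6864 FPKM, and in the 10 immune markers, with 67.5 FPKM against 419 and 468 FPKM. Over all genes tested, the median of the log2 fold changes, PBOO minus normal, was -0.25 at week 4 and 0.12 at week 5. After median-ratio scaling of the samples these medians were -0.01 and 0.02, so the log2 fold changes below are best read against -0.25 and 0.12.

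The obstruction was compared with normal bladder within each week. At week 4, all PBOO samples lay above all normal samples in 3 of the 10 genes (Kcnmb1, Kcnn3 and Kcnf1) and below them in 1 (Kcng1), where 6.63% and 34.9% of the 11320 genes tested did so (41.6% in either direction). At week 5, all PBOO samples lay below all normal samples in 8 of the 10 genes, and above them in 2 (Kcnk5 and Kcnk7), where 25% and 35.3% of the 13685 genes tested did so (60.2% in either direction). In each week 9 of the 10 genes passed the minimum of a mean of 0.5 FPKM, all but Kcnk7 at week 4 and Kcnn3 at week 5. The differences helped to pick these genes, and nothing is read from the counts. In these bulk samples, fewer cells of a type and less RNA per cell cannot be told apart.

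**Figure D1:**
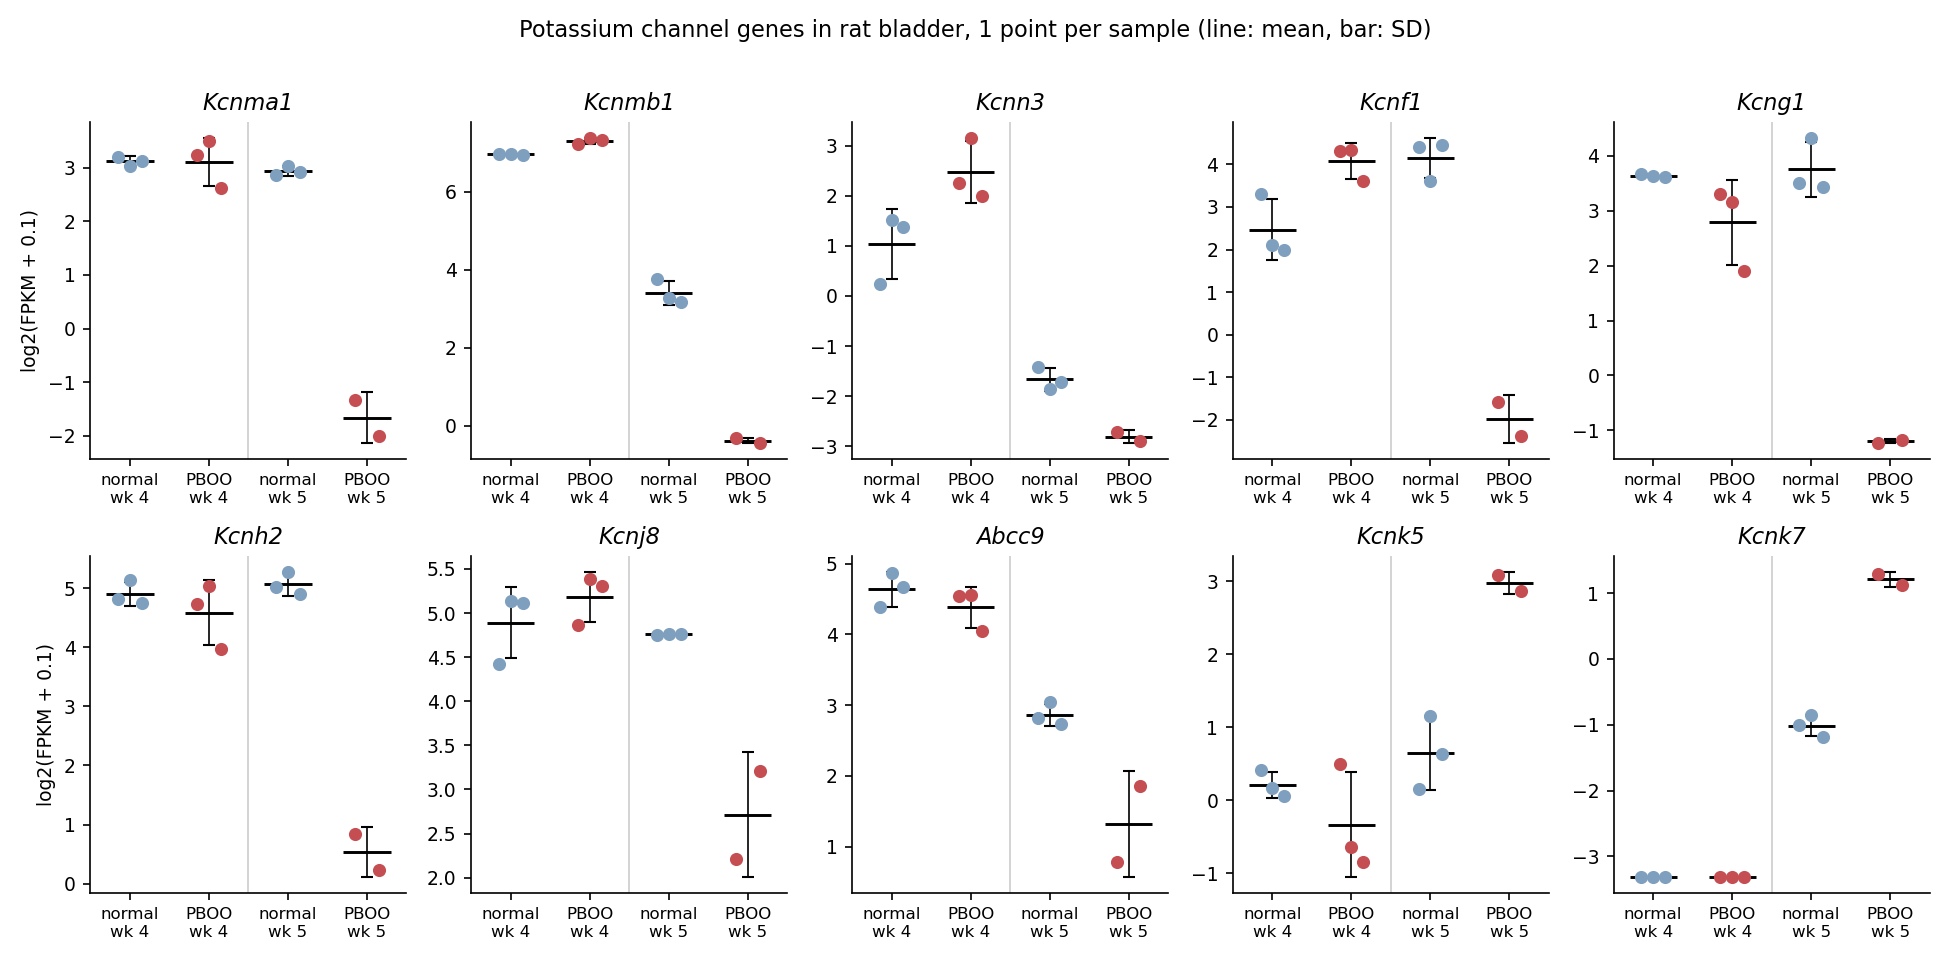
Level of each of the 10 potassium channel genes as log2(FPKM + 0.1) on the y axis, with the 4 groups (normal and PBOO, weeks 4 and 5) on the x axis, 1 point per sample, a line for the mean and a bar for the SD. The y axes differ between panels. All genes but Kcnk5 and Kcnk7 have their lowest points in the 2 PBOO samples of week 5, and Kcnk7 is listed at 0 in all 6 samples of week 4.

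Kcnma1 encodes the pore of the BK channel, which opens with calcium and depolarisation. At week 4 it had 9.14, 8.03 and 8.59 FPKM in the normal samples and 9.31, 11.1 and 6.04 FPKM in the PBOO samples. The groups overlapped, with both the highest and the lowest value in PBOO samples. On the log2 scale the fold change was 0.00, with a standard error (SE) of 0.23, and the sign depended on the scaling, with 0.25 after median-ratio scaling. At week 5, Kcnma1 had 7.16, 8.07 and 7.47 FPKM in the normal samples, against 0.298 and 0.150 FPKM in the PBOO samples. The normal mean was 33.8 times the PBOO mean (log2 fold change -4.60, SE 0.27).

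Kcnmb1 encodes the beta1 subunit, which raises the calcium sensitivity of BK channels in smooth muscle. At week 4 its values were 124, 126 and 123 FPKM in the normal samples, and 149, 167 and 161 FPKM in the PBOO samples. The PBOO samples lay just above the normal ones, which were within a few percent of each other. The log2 fold change was 0.35 (SE 0.09), a ratio of the means of 1.28. At week 5 there were 13.5, 9.59 and 8.95 FPKM in the normal samples and 0.697 and 0.641 FPKM in the PBOO samples (log2 fold change -3.79, SE 0.23). In RefSeq, Kcnmb1 overlaps Kcnip1, which had 0.149 to 0.459 FPKM at week 4 and was listed at 0 at week 5. Without a stated strand of counting, reads of the 2 genes cannot be told apart where they overlap.

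The ratio of Kcnmb1 to Kcnma1 within a sample was 13.6 to 15.7 in the normal and 14.98 to 26.6 in the PBOO samples of week 4. It was 1.19 to 1.89 in the normal and 2.34 to 4.28 in the PBOO samples of week 5. In both weeks the PBOO samples reached the higher ratios, but the groups overlapped at week 4. Kcnmb4, the beta4 subunit, had 3.59 to 4.42 FPKM in the normal samples of week 4 and 1.21 to 2.13 FPKM in the PBOO samples. It fell at an unadjusted p under 0.05 but not after Benjamini-Hochberg adjustment (log2 fold change -1.27, SE 0.26, limma adjusted p = 0.0554). At week 5 Kcnmb4 fell by 2.34 on the log2 scale (limma adjusted p = 0.00813). Kcnmb2 and Kcnmb3 did not exceed 0.793 FPKM in any sample.

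Kcnn3 encodes an SK channel pore that opens with calcium bound to calmodulin. In week 4 normal samples it had 1.08, 2.75 and 2.49 FPKM, and in PBOO samples 4.69, 8.83 and 3.89 FPKM. Every PBOO sample was above every normal sample, although the spread within each group was wide. The ratio of the means was 2.75 (log2 fold change 1.43, SE 0.44). In week 5 the gene had 0.274, 0.175 and 0.204 FPKM in the normal samples and 0.0523 and 0.0337 FPKM in the PBOO samples. It did not pass the minimum of a mean of 0.5 FPKM, so no standard error was fitted. Its levels were then near the 0.1 FPKM added before taking logs, so the log2 fold change of -1.14 understates a ratio of 5.06 between the normal and PBOO means.

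Kcnf1 (Kv5.1) and Kcng1 (Kv6.1) encode modifier subunits that form no channel alone and join Kv2 pores. At week 4, Kcnf1 had 9.69, 4.22 and 3.89 FPKM in the normal samples and 19.7, 20.2 and 12.0015 FPKM in the PBOO samples. The groups were separate, and normal replicate 1 lay nearest to the PBOO samples. The log2 fold change was 1.62 (SE 0.38), or 2.03 without normal replicate 1. At week 5 the values were 21.0, 12.1 and 21.8 FPKM in the normal samples and 0.232 and 0.0913 FPKM in the PBOO samples. This was the widest difference of the 10 genes, with a normal mean 113 times the PBOO mean (log2 fold change -6.14, SE 0.37).

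Kcng1 had 12.6, 12.2 and 12.2 FPKM in the normal samples of week 4 and 9.83, 8.81 and 3.64 FPKM in the PBOO samples. All PBOO samples were lower, and replicate 3 was the lowest of them. The log2 fold change was -0.85 (SE 0.36), and -0.40 without PBOO replicate 3. At week 5 Kcng1 had 11.2, 20.1 and 10.7 FPKM in the normal samples and 0.327 and 0.342 FPKM in the PBOO samples (log2 fold change -4.96, SE 0.32). Kcnf1 and Kcng1 thus lay on opposite sides of normal at week 4 and on the same side at week 5.

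Kcnb2 (Kv2.2), a pore that these modifiers join, stayed at or below 0.943 FPKM in every sample.

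Kcnh2 encodes the ERG1 channel, a Kv channel that carries current as the membrane repolarises. At week 4 there were 28.2, 35.1 and 26.8 FPKM in the normal samples and 26.6, 32.8 and 15.6 FPKM in the PBOO samples. The groups overlapped, and PBOO replicate 3 was the lowest, as it was for Kcnma1 and Kcng1. That replicate also had the highest sums of smooth muscle (83056 FPKM) and striated muscle markers (3060 FPKM) of week 4. Acta1 alone had 2741 FPKM of the striated sum, and the part of these markers in the values was not tested. The Kcnh2 log2 fold change of -0.32 (SE 0.27) was -0.01 without that replicate, -0.55 without PBOO replicate 2 and -0.20 without normal replicate 2. At week 5, 32.5, 38.8 and 29.7 FPKM in the normal samples stood against 1.69 and 1.07 FPKM in the PBOO samples (log2 fold change -4.54, SE 0.23).

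Kcnj8 encodes Kir6.1, the pore of the vascular type of KATP channel, and Abcc9 encodes SUR2, its regulatory sulfonylurea receptor. The genes are neighbours in the rat genome, with no other coding gene between them in RefSeq. At week 4 Kcnj8 had 21.4, 35.0 and 34.6 FPKM in the normal samples and 28.9, 41.9 and 39.4 FPKM in the PBOO samples. The groups overlapped, and the log2 fold change of 0.29 (SE 0.23) was 0.06 without normal replicate 1, 0.46 without PBOO replicate 1 and 0.19 without PBOO replicate 2. In week 5 the 3 normal samples were alike, with 26.9, 27.0 and 27.0 FPKM, and the PBOO samples had 4.53 and 9.17 FPKM. The log2 fold change was -2.05 (SE 0.29).

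Abcc9 had 20.7, 29.1 and 25.3 FPKM in the normal samples of week 4 and 23.1, 23.4 and 16.4 FPKM in the PBOO samples. The groups overlapped, and the log2 fold change of -0.26 (SE 0.19) was close to the median of all genes, with -0.14 without normal replicate 2 and -0.09 without PBOO replicate 3. At week 5 there were 6.94, 8.12 and 6.55 FPKM in the normal samples and 1.63 and 3.51 FPKM in the PBOO samples (log2 fold change -1.54, SE 0.33). Without PBOO replicate 1 the log2 fold change was -1.01. Within a sample, the ratio of Kcnj8 to Abcc9 was 1.03 to 1.37 in the normal and 1.25 to 2.40 in the PBOO samples of week 4, against 3.32 to 4.11 and 2.61 to 2.78 at week 5. The ratios of the 2 groups overlapped at week 4 and were lower in PBOO at week 5. The pancreatic type of KATP channel was low, with Kcnj11 (Kir6.2) at or below 0.209 FPKM and Abcc8 (SUR1) at or below 0.0270 FPKM in every sample.

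Kcnk5 (TASK-2) and Kcnk7 belong to the K2P family of background channels, whose subunits carry tandem pore domains. Kcnk5 is known from epithelia, while Kcnk7 has not been shown to carry current on its own. At week 4, Kcnk5 had 1.23, 1.03 and 0.946 FPKM in the normal samples and 1.31, 0.540 and 0.456 FPKM in the PBOO samples. PBOO replicate 1 was the highest and the other 2 were the lowest, and the log2 fold change of -0.55 (SE 0.43) was -0.96 without PBOO replicate 1 and -0.29 without PBOO replicate 3. At week 5 the values were 1.01, 2.13 and 1.45 FPKM in the normal samples and 8.39 and 7.19 FPKM in the PBOO samples. The PBOO mean was 5.09 times the normal mean (log2 fold change 2.33, SE 0.33).

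Kcnk7 was listed at 0 in all 6 samples of week 4. So were 4871 genes of the table, among them the urothelial markers Krt7 and Upk3b, so a 0 is given as the listed value and not as an absence. At week 5 Kcnk7 had 0.401, 0.451 and 0.341 FPKM in the normal samples and 2.35 and 2.08 FPKM in the PBOO samples. The log2 fold change was 2.22 (SE 0.31), and Kcnk7 passed the minimum of 0.5 FPKM through the PBOO samples.

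**Figure D2:**
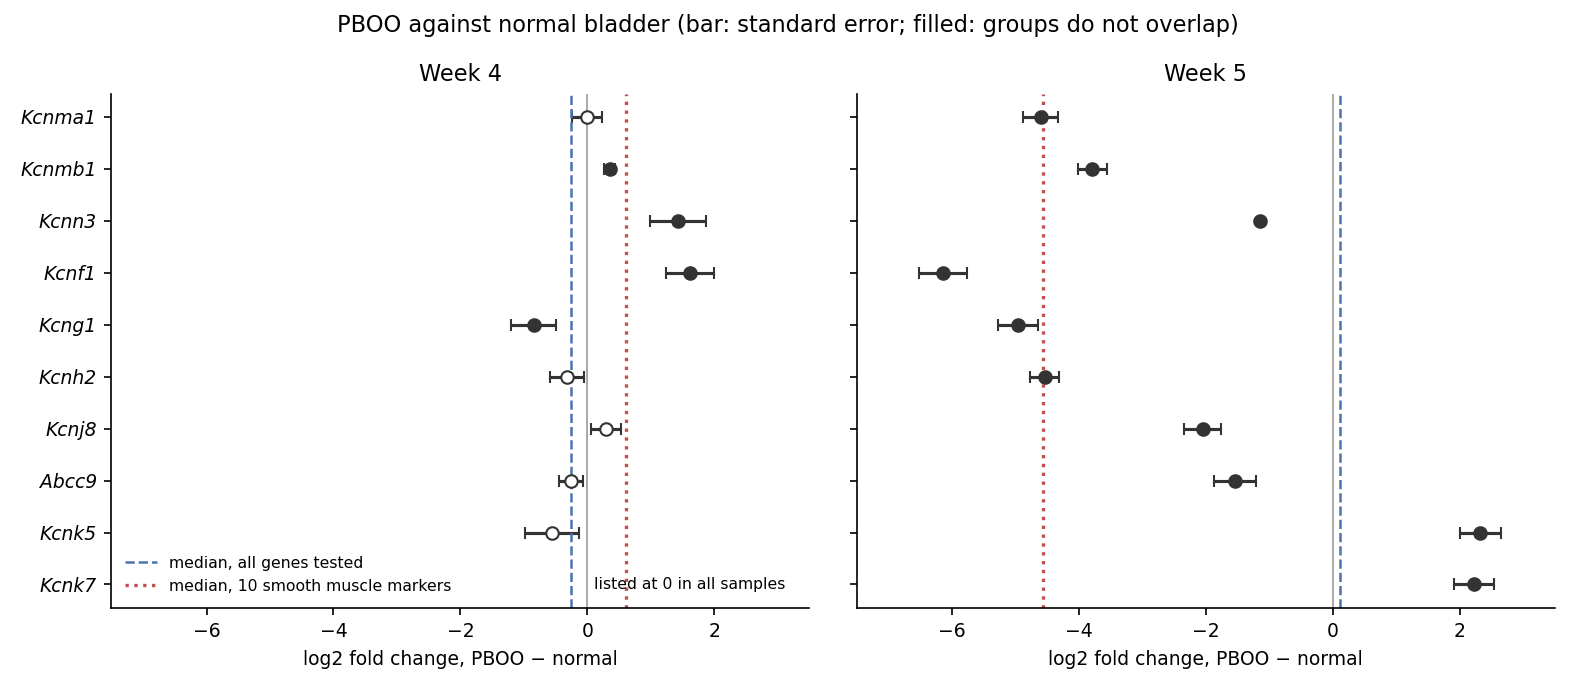
Log2 fold change (PBOO minus normal, x axis) of each of the 10 genes (y axis) at week 4 and week 5, with the standard error as a bar, filled points where the groups do not overlap, a dashed line at the median of all genes tested and a dotted line at the median of 10 smooth muscle markers. At week 4 the points lie between -0.85 and 1.62, and at week 5 between -6.14 and 2.33, with Kcnma1 and Kcnh2 next to the smooth muscle markers at -4.56. Kcnn3 has no bar at week 5 because no standard error was fitted.

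The median log2 fold change of the 10 genes was 0.00 at week 4 and -2.92 at week 5, beside -0.25 and 0.12 for all genes tested. The normal samples of the weeks, set side by side, differed for some of these genes. Kcnmb1 had a normal mean of 124 FPKM at week 4 and 10.7 FPKM at week 5, a ratio of 11.6. The normal means were 2.11 and 0.218 FPKM for Kcnn3 and 25.1 and 7.20 FPKM for Abcc9. Kcnf1 went the other way, with 5.93 FPKM at week 4 and 18.3 FPKM at week 5. The normal samples of the weeks did not overlap in these 4 genes or in Kcnk7. They overlapped in Kcnma1, Kcng1, Kcnh2, Kcnk5 and Kcnj8, whose means were within 1.43 times of each other. Among 13497 genes, 47.7% were higher and 26.9% lower in every normal sample of week 4 than in every one of week 5. The week, the controls used and the processing of each week cannot be told apart here, so no difference between the weeks was tested.

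In order of level, Kcnmb1 stood first in normal bladder at week 4, followed by Kcnj8, Kcnh2 and Abcc9 at 30.3, 30.0 and 25.1 FPKM, which did not differ beyond their spread. Kcng1, Kcnma1 and Kcnf1 came next at 12.4, 8.59 and 5.93 FPKM, and the values of Kcnma1 and Kcnf1 overlapped. Kcnn3 and Kcnk5, which also overlapped, were near the bottom, above Kcnk7. At week 5 Kcnh2 was the highest in normal bladder at 33.7 FPKM, then Kcnj8 at 26.9 FPKM. Kcnf1, Kcng1 and Kcnmb1 followed, each overlapping the next, and Kcnma1 and Abcc9, at 7.57 and 7.20 FPKM, overlapped as well. In the PBOO samples of week 5, Kcnk5 and Kcnj8 were the highest at 7.79 and 6.85 FPKM and overlapped, and Kcnma1, Kcnf1 and Kcnn3 were the lowest, at 0.224, 0.162 and 0.0430 FPKM.

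Markers of several cell types moved with the groups. A marker is counted here as higher or lower where the groups did not overlap. Of all genes tested, 6.63% were higher and 34.9% lower without overlap at week 4. At week 5 these shares were 35.3% and 25%. The summed level of the 10 smooth muscle markers was 52125 to 83056 FPKM in the PBOO samples of week 4, and 7 of the 10 markers were higher in every PBOO sample than in every normal sample. In week 5 the sum was 1004 to 1882 FPKM in the PBOO samples, and all 10 markers were lower, with log2 fold changes from -5.90 to -3.90. The 10 interstitial markers summed to 2186 to 2635 FPKM in normal and to 418 to 425 FPKM in PBOO samples of week 5, and 8 of them were lower. The 8 pericyte and vascular mural markers summed to 304 to 355 FPKM in normal and 106 to 140 FPKM in PBOO samples, with 3 of the 8 lower. Most of that sum was Mcam in normal samples, at 226 to 257 FPKM, against 41.6 and 70.6 FPKM in PBOO samples. The median log2 fold change of the 8 was -0.03. The 12 urothelial markers summed to 7650 to 9954 FPKM in normal and 9979 to 10709 FPKM in PBOO samples of week 5, with 4 higher and 6 lower. The 10 immune markers summed to 34.2 to 85.8 FPKM in normal and 267 to 1134 FPKM in PBOO samples, with 9 of 10 higher.

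The nerve and glia markers summed to 778 to 833 FPKM in normal and to 728 to 1317 FPKM in PBOO samples of week 5, with 5 of 9 lower and 1 higher. Uchl1 alone had 724 to 1310 FPKM in these PBOO samples, and the median log2 fold change of the 9 was -2.14. Of 8 endothelial markers 1 was higher and none lower, with sums of 49.1 to 92.9 FPKM and 83.4 to 119 FPKM. The 6 striated muscle markers summed to 206 to 231 FPKM in normal and 27.4 to 27.5 FPKM in PBOO samples, with 5 lower and 1 higher. At week 4, sums of the urothelial markers were 6571 to 8342 FPKM in normal and 3830 to 4956 FPKM in PBOO samples, with 7 of 12 lower. All 5 proliferation markers were higher in PBOO at week 4, with sums of 4.82 to 7.34 FPKM and 8.32 to 41.5 FPKM. At week 5 none of these 5 markers separated the groups. The other lists overlapped at week 4 in their sums, apart from striated muscle (177 to 292 FPKM against 362 to 3060 FPKM) and nerve and glia (1032 to 1451 FPKM against 645 to 940 FPKM). Acta1 alone had 257 to 2741 FPKM in those PBOO samples. The median log2 fold change of the 6 striated markers was -0.72, with 2 higher and none lower. Uchl1 alone had 936 to 1361 FPKM in normal and 566 to 883 FPKM in PBOO samples. Of the 9 nerve and glia markers, 4 were lower and 1 higher. The part of these cell types in the results of the potassium channel genes was not tested.

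Each channel gene was also set against the smooth muscle markers of the same sample, as a log2 ratio of its FPKM to the geometric mean of the 10 markers. This ratio, chosen after seeing the data, has no test. The markers themselves differed between the groups, and the median change of this ratio over all genes tested and above 0 in every sample was -1.18 at week 4 and 4.74 at week 5. At week 4 the ratio was lower in every PBOO sample than in every normal sample for 6 genes, by 0.57 for Kcnmb1 up to 1.78 for Kcng1, and for 85.1% of all 11320 genes tested (0.716% were higher). Kcnma1, whose FPKM groups overlapped, had a change of -0.93 on this scale, and Kcnh2 one of -1.24. Kcnn3 and Kcnf1, with changes of 0.56 and 0.71, overlapped. At week 5 the ratio was higher without overlap for 5 of the 10 genes and lower for 2, where 96.6% and 0.628% of all 13685 genes tested were so. Nothing is read from these counts, since the differences of the same samples chose the genes. The change was -0.02 for Kcnh2, whose groups overlapped, and -0.54 for Kcnma1. It was -2.30 for Kcnf1, which was lower relative to muscle as well as in FPKM. Kcnn3, Kcnj8 and Abcc9 were lower in FPKM but higher relative to the muscle markers, by 2.27, 2.56 and 3.03. The ratios of Kcnk5 and Kcnk7 were higher by 7.03 and 7.10. Kcnmb1 and Kcng1 overlapped, with changes of 0.65 and -0.71.

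**Figure D3:**
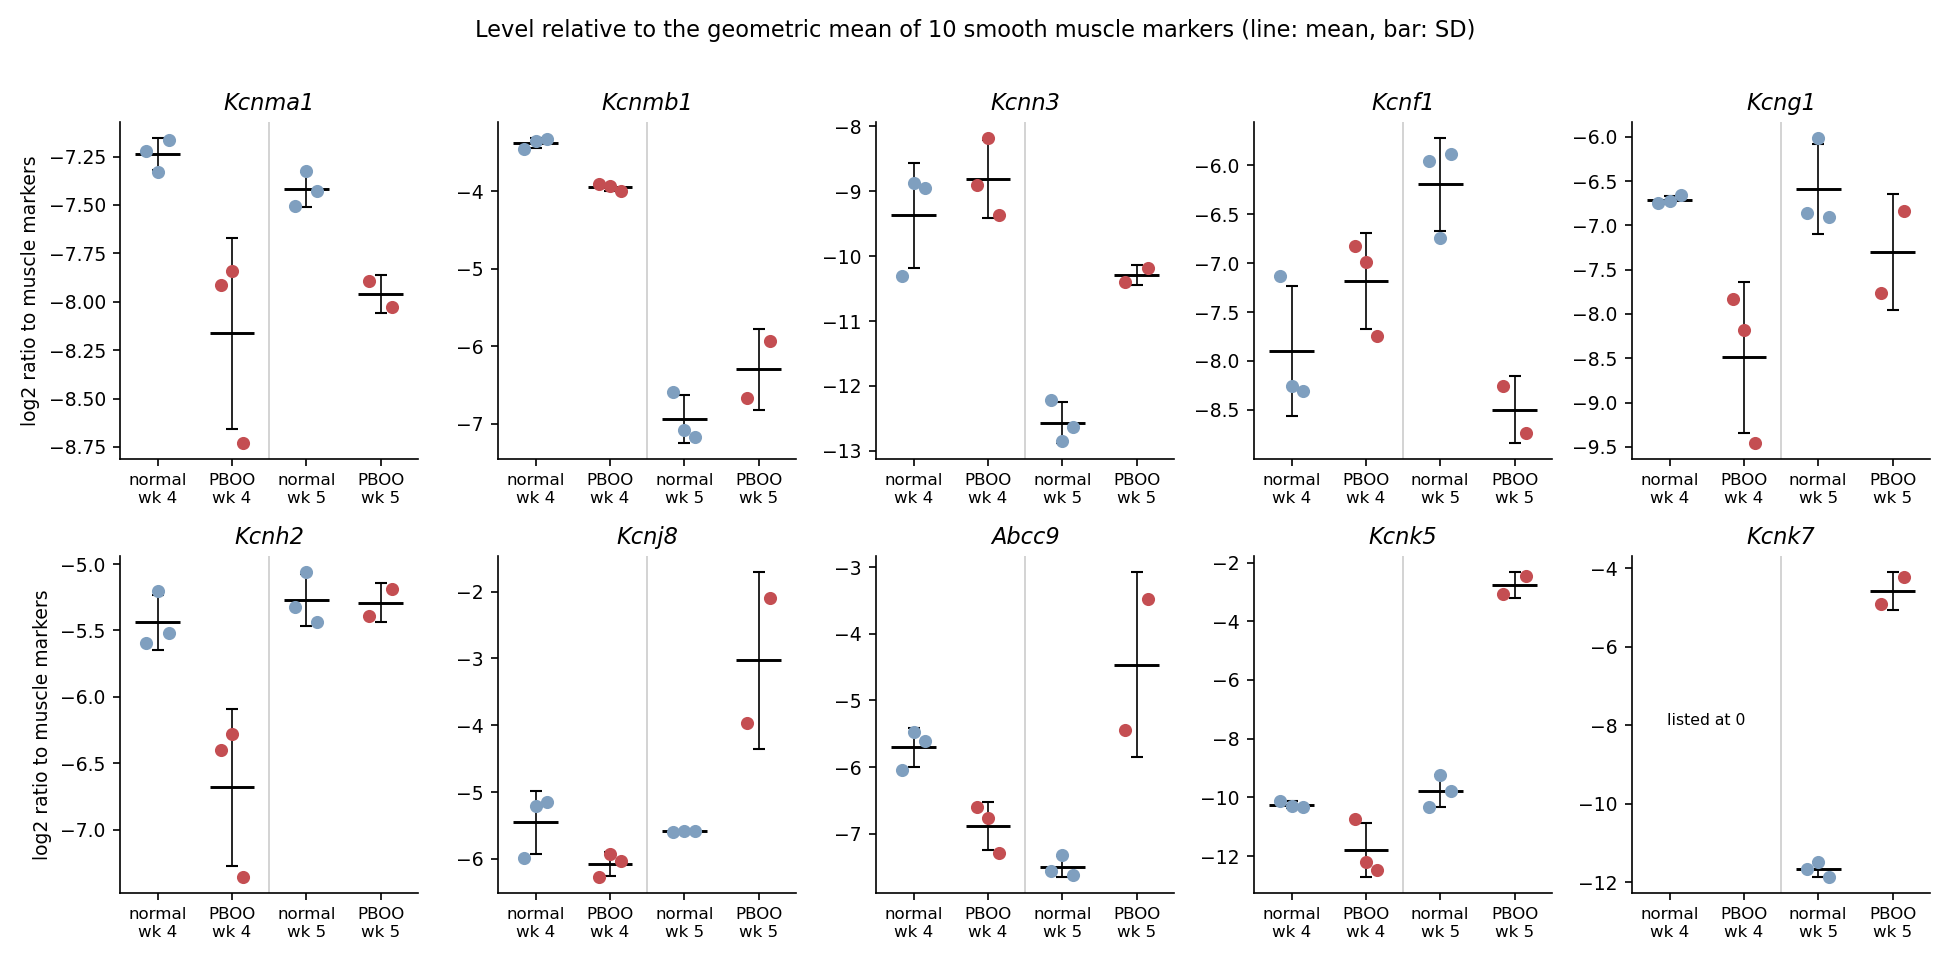
Log2 ratio of each gene to the geometric mean of 10 smooth muscle markers in the same sample (y axis, without a unit, and different between panels) in the 4 groups (x axis), with 1 point per sample, a line for the mean and a bar for the SD. At week 5 the ratio of Kcnh2 overlaps between groups, that of Kcnf1 is lower in PBOO, and those of Kcnj8, Abcc9, Kcnk5 and Kcnk7 are higher. Kcnk7 has no ratio at week 4.

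The other potassium channel genes gave the family around these 10. Of 84 such genes, 36 reached a mean of 0.5 FPKM at week 4 and were tested. At an unadjusted p under 0.05, 3 rose and 2 fell, 13.9% of the 36, where 32% of all genes tested passed (5.76% upward and 26.2% downward). By limma none passed at a Benjamini-Hochberg adjusted p under 0.05, which 0.512% of all genes did. The count of genes that rose was 1 without normal replicate 2, normal replicate 3 or PBOO replicate 2, and the count that fell was 8 without PBOO replicate 1. The median log2 fold change of the 36 was -0.26, against -0.25 for all genes. Besides Kcnmb4, the K2P gene Kcnk1 (TWIK-1) fell, from 50.9 to 59.6 FPKM in normal to 23.3 to 38.0 FPKM in PBOO samples (log2 fold change -0.81, SE 0.19, limma adjusted p = 0.0668). The upward calls included the accessory gene Kcne4, whose groups overlapped, and the K2P gene Kcnk12, with 0.165 to 0.464 FPKM in normal and 0.874 to 1.63 FPKM in PBOO samples. Those 2 were named after their values were seen, and Kcnk12 passed the minimum of 0.5 FPKM through the PBOO samples.

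At week 5, 28 of the 84 were tested, of which 9 rose and 12 fell, 75% of the 28, where 43.4% of all genes passed (24.6% upward and 18.8% downward). After adjustment over all genes, 6 rose and 12 fell, while 29.9% of all genes passed in either direction. Some called genes reached the minimum of 0.5 FPKM only through the group where they were high, which limits these counts. Examples are Kcne3 (means of 0.328 FPKM in normal and 2.02 FPKM in PBOO samples) and Kcnd3 (3.73 and 0.118 FPKM). By family, 5 of 7 voltage-gated genes fell and 1 rose, 5 of 10 accessory genes fell and 3 rose, 3 of 4 inward rectifiers rose and 1 fell, and 1 of 5 K2P genes rose and 1 fell. Of the calcium- or sodium-activated genes, 1 of 2 rose. The counts for the families rest on unadjusted p.

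**Figure D4:**
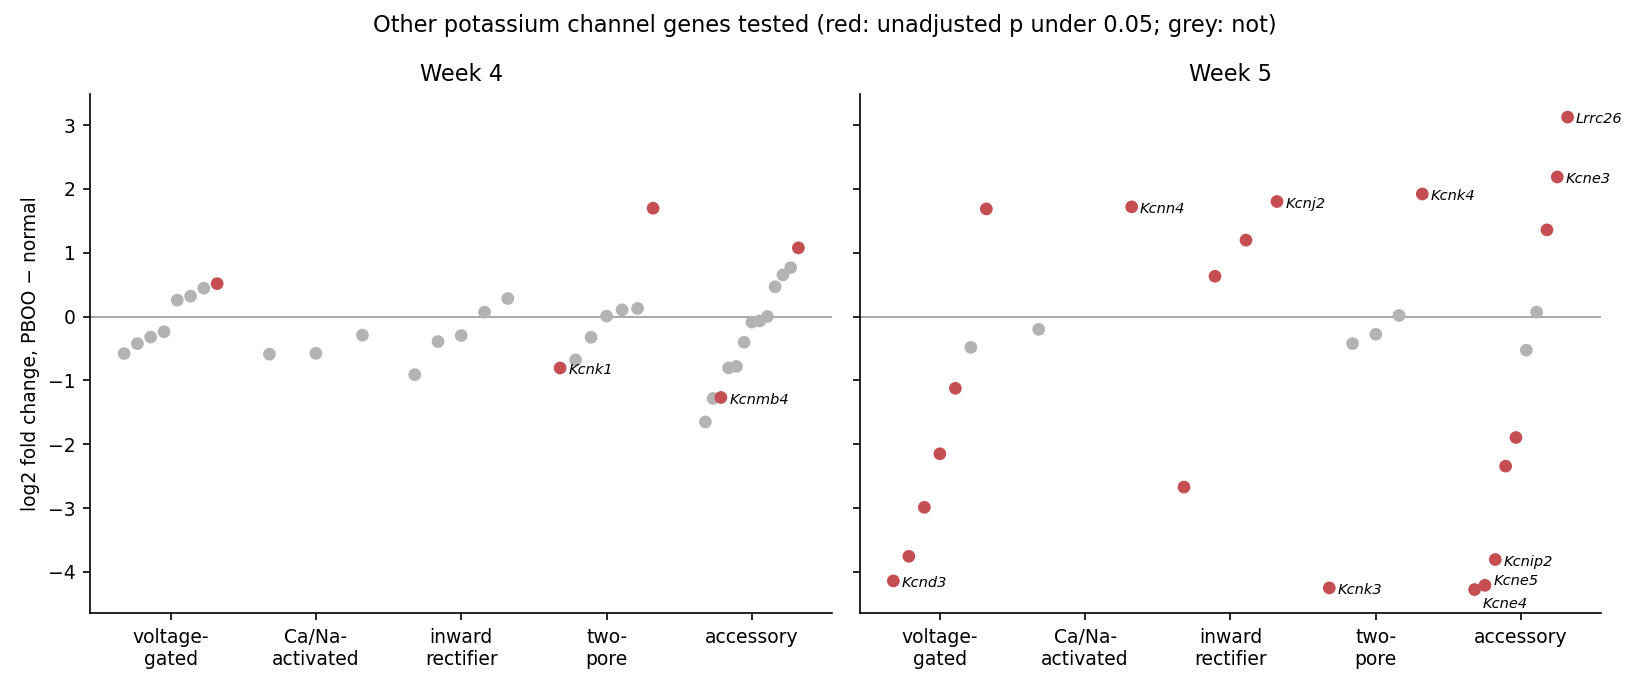
Log2 fold change (PBOO minus normal, y axis) of the other potassium channel genes tested, by family (x axis), at week 4 and week 5, with 1 point per gene. Red points had an unadjusted limma p under 0.05, 5 of 36 at week 4 and 21 of 28 at week 5, and the genes named in the text by the naming rule carry their symbols.

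By the naming rule, the largest falls at week 5 were in Kcne4, Kcnk3, Kcne5, Kcnd3 and Kcnip2. Kcne4, an accessory subunit that inhibits some Kv channels, fell from 14.5 to 19.4 FPKM in normal to 0.573 to 1.07 FPKM in PBOO samples (log2 fold change -4.28, SE 0.28, limma adjusted p = 0.000542). Kcnk3 (TASK-1) fell from 5.54 to 8.29 FPKM to 0.140 to 0.412 FPKM (log2 fold change -4.25, SE 0.39, limma adjusted p = 0.00150). Kcne5 had a log2 fold change of -4.21 (limma adjusted p = 0.00217). Its PBOO samples, at 0.0276 and 0.0654 FPKM, lay under the 0.1 FPKM added before taking logs, so this value understates the fall. Its normal mean was 58.2 times its PBOO mean, against 21.0 times for Kcne4, so the order of these falls depends on the scale. Kcnd3 (Kv4.3), a pore of transient outward current, and Kcnip2, the KChIP2 subunit that joins Kv4 pores, fell by 4.14 and 3.81 on the log2 scale (limma adjusted p = 0.000664 and 0.00162). In the PBOO samples Kcnd3, at 0.0863 and 0.150 FPKM, was also near the 0.1 FPKM added.

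The largest rises at week 5 were in Lrrc26, Kcne3, Kcnk4, Kcnj2 and Kcnn4. Kcnn4, the intermediate-conductance calcium-activated channel of epithelial and immune cells, rose from 2.05 to 3.20 FPKM in normal to 6.61 to 10.1 FPKM in PBOO samples (log2 fold change 1.72, SE 0.29, limma adjusted p = 0.00979). Kcnj2 (Kir2.1) rose from 0.809 to 1.73 FPKM to 4.50 to 5.18 FPKM (log2 fold change 1.80, SE 0.36, limma adjusted p = 0.0160). Kcne3 and Kcnk4 (TRAAK) had log2 fold changes of 2.19 and 1.92 (limma adjusted p = 0.0363 and 0.0332). The unadjusted call of Kcnk4 was lost without PBOO replicate 1, with a log2 fold change of 1.46. Lrrc26, an accessory subunit of BK channels in epithelia, had 0.118, 1.73 and 0 FPKM in the normal samples and 4.00 and 2.07 FPKM in the PBOO samples. Its log2 fold change of 3.13 had a limma p of 0.0480 and an adjusted p of 0.112, and the unadjusted call was lost under most alternatives, as the closing part gives. Lrrc26 was thus higher in the 2 samples in which the other BK genes, Kcnma1, Kcnmb1 and Kcnmb4, were lower.

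For each of the 10 genes, those with the most similar pattern were found among 9970 genes whose mean reached 1 FPKM in both weeks, by Pearson correlation over the 11 samples of log2 values minus the normal mean of the same week. The values of a week share the same normal mean, and the correlations are given as a description. For a gene that changed mostly at week 5, such as Kcnma1 (log2 fold change -4.60), r rests mainly on the PBOO samples of that week. Nearest to Kcnma1 were Pknox2, Sspn and Slc2a4 (r = 0.998 for each), and nearest to Kcnh2 were Slc2a4, Prima1 and Apbb1 (r = 0.998, 0.997 and 0.997). Sspn encodes sarcospan of the muscle dystrophin complex, and Slc2a4 the glucose transporter GLUT4. Kcnmb1 was nearest to Myom1, Reep2 and Zfpm2 (r = 0.995, 0.995 and 0.994), and Kcnf1 to the filamin gene Flna, Map7d1 and Pde4dip (r = 0.993, 0.992 and 0.991). Kcng1 lay closest to Maoa, Cers4 and Meis2 (r = 0.998, 0.995 and 0.994). For Kcnj8 the list was Rarres2, Oat and Qpct (r = 0.995, 0.994 and 0.994), and for Abcc9 it was Ccdc8, Tnfsf12 and Cd302 (r = 0.991, 0.986 and 0.984), with no gene in common. Kcnn3 had the weakest likeness, with Erc1, Tpp1 and Il34 (r = 0.973, 0.942 and 0.936). Kcnk5 was most like Cbx2, Lgals4 and Slc52a3 (r = 0.990, 0.985 and 0.985), and Kcnk7 like Smad1, Aldh1a3 and Htatip2 (r = 0.994, 0.990 and 0.988).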

How the data were processed

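The authors deposited 1 table of FPKM values for 18507 genes in 11 columns, and all 11 were mapped to samples by their descriptions. According to the methods, the libraries were TruSeq paired-end libraries, and the authors used HISAT2, StringTie and featureCounts to make the FPKM. The submitters' processing notes name the build mm10, which is a mouse build, while the samples are from rats. Neither the gene annotation nor the strandedness of the counts is given in the sources used here. How mapping to a genome other than that of the rat would move a value was not tested. The table holds no read counts, so the DESeq2 test of the authors could not be run and depth is unknown.

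Each week was fitted separately with limma 3.58.1 in R 4.3.3 (eBayes with a trend) on log2(FPKM + 0.1), keeping genes whose mean reached 0.5 FPKM. The fold change on this scale understates the change of low genes. Calls of the other 84 potassium channel genes used an unadjusted p under 0.05, with Benjamini-Hochberg adjusted p over all genes tested beside it. Of these genes, up to 5 per direction and week were named, by the largest log2 fold change among those called, with separate groups and a mean of at least 1 FPKM. Partner subunits (Kcnb2, Kcnmb2, Kcnmb3, Kcnmb4, Lrrc26, Kcnj11 and Abcc8) were named whatever their values. Some genes of the list were counted and tested but are not reported by name here. The 10 genes, the lists and the tests were chosen with earlier results of these data known. The steps were first tested on simulated data. The sequences were read with Python 3.11.15, and the figures were drawn with matplotlib 3.10.9. Nothing in the labels says that same-numbered samples are from the same rat, or that samples of a group are from separate rats. The paper describes biological duplicates for the PBOO rats and states that a sample was excluded for quality during library construction. The p-values measure the spread between these samples, and the labels do not show whether it is a spread between rats.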

Additional observations from a re-analysis of the deposited data

Results flagged for a closer look

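For Kcnf1, Kcnn3, Kcnmb1 and Lrrc26, all PBOO samples lay beyond all normal samples in both weeks, but in opposite directions. The log2 fold changes were 1.62 and -6.14 for Kcnf1, 1.43 and -1.14 for Kcnn3, and 0.35 and -3.79 for Kcnmb1. They were -1.75 and 3.13 for Lrrc26, which was at or under 0.608 FPKM in the samples of week 4. Other potassium channel genes switched sides too, among them Kcnk12 (1.70 and -1.58). Groups without overlap, in either direction, were seen in 41.6% of all genes tested at week 4 and in 60.2% at week 5. How many of all genes switched sides was not counted. The difference between the weeks was not tested, and each week has its own normal samples.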

How the results depend on the processing

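The FPKM table gives no depth, so low genes have no counting error, and 3 against 3 or 2 against 3 samples limit every value. Among the other potassium channel genes at week 4, 5 rose with median-ratio scaling (3 in the main analysis) and 7 fell without the filter on low values (2 in the main analysis). When 1 sample was left out, 1 to 4 rose and 2 to 8 fell. At week 5, 19 fell without the filter (12 in the main analysis) and 5 rose with the replicate block (9 in the main analysis), while leaving out 1 sample gave 5 to 8 that rose and 10 to 15 that fell. With 1 PBOO sample left at week 5, its spread is taken from the normal samples. The median log2 fold change of the 10 genes at week 5 was -2.34 with a pseudocount of 1, and -3.14 to -2.69 when 1 sample was left out. When 1 sample was left out at week 4, 1 to 2 of the 10 genes lay below normal without overlap. There were 2 without normal replicate 1, PBOO replicate 1 or PBOO replicate 2. Above normal without overlap there were 4 without PBOO replicate 1 or PBOO replicate 3 (3 in the main analysis). Relative to the smooth muscle markers, an alternative chosen after seeing the data, the medians were -0.93 at week 4 and 1.46 at week 5. On that scale 0 genes were higher and 6 lower without overlap at week 4, and 5 were higher and 2 lower at week 5, beside 0.716% higher and 85.1% lower of all genes tested at week 4 and 96.6% and 0.628% at week 5.

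The replicate numbers were not taken as pairs. Same-numbered samples had correlations of deviations of 0.15, -0.02 and 0.23 at week 4 and of 0.00 and 0.12 at week 5. With the replicate block, 2 other potassium channel genes rose and 3 fell at week 4, and 5 rose and 12 fell at week 5. Of the alternative values of the other channels named here, 0 of 30 at week 4 and 11 of 140 at week 5, 10 of Lrrc26 and 1 of Kcnk4, lost the unadjusted call, and none reversed. The p of Lrrc26 in those 10 ranged from 0.0509 to 0.204.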
